A study of Mus musculus with 8 samples.

Results

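The genes examined here encode the integrins, which are cell surface receptors for the extracellular matrix, the laminin chains, and 4 further basement membrane proteins. They were selected by symbol: integrin alpha subunits, integrin beta subunits, laminin alpha, beta and gamma chains, and Nid1, Nid2, Hspg2 and Agrn. The rule found 41 genes among the 54838 rows of the files. RNA-seq was done on 8 cultures of 3H3, a mouse hepatocellular carcinoma line that the labels trace to a liver tumour of a C57BL/6 MC4R-KO mouse given a high-fat diet and that carries HrasQ61L. The group called 3H3P has Trp53 knocked out with CRISPR/Cas9 and was sequenced as 1 library. The group called 3H3PM has the same knockout plus ectopic MYC and was sequenced as 7 libraries, each a different subclone (1, 2, 3, 6, 7, 8 and 9) taken from tumours that 3H3PM cells formed in nude mice. All libraries therefore share the Hras mutation, the Trp53 knockout and the culture medium. No 3H3PM culture without passage through a mouse was analysed here, so MYC, growth as a tumour and subcloning cannot be told apart.

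Integrins are pairs of an alpha and a beta chain, and the pair decides which matrix protein is bound. Laminins are cross-shaped trimers of an alpha, a beta and a gamma chain, and they form the sheet of the basement membrane to which nidogens, perlecan and agrin attach. In healthy liver the sinusoids lack a continuous basement membrane, whereas bile ducts and larger vessels are surrounded by one.

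Library totals ran from 12838521 to 17987068 expected counts, and the 41 genes took 0.269% to 0.385% of them. Trp53 was at 212 CPM (counts scaled to library depth) in 3H3P and at 53.9 ± 7.45 CPM in the subclones (SD, n = 7), and both groups carry the knockout, so this checks no label. Mouse Myc was at 85.2 CPM in 3H3P and at 6.54 ± 3.58 CPM in the subclones, lower in the group labelled with ectopic MYC. The labels do not give the species of the ectopic MYC, so counts of the mouse gene do not check that label. The labelled cell type was checked on marker lists. The summed level of 8 hepatocyte markers was 1365 CPM in 3H3P and 3.93 to 29.6 CPM in the subclones, mostly Apob and Trf. Of the 8 markers, 5 were tested, 3 were called lower (11.8% of all tested genes were) and 2 were not called. The remaining 3 stayed under 1 CPM in every library, among them Apoa1 and Ttr at 0 to 3 counts in either group. The summed level of 6 biliary markers was 2866 CPM against 616 to 1447 CPM, mostly Spp1, which was not called, with Epcam at 0. Krt7 of this list was called lower, and Sox9 was at 37.7 CPM against 42.3 ± 21.4 CPM. For 10 fibroblast and stellate markers it was 119 CPM against 104 to 502 CPM, and Lum and Lrat were at 0. Of these 10 markers 7 were tested, 1 was called lower, 1 higher (7.33% of all tested genes were) and 5 were not called. Their median log2 fold change was 2.70. Within that list Dcn fell from 116 CPM, or 1868 counts, to 1 count over all subclones (adjusted p = 4.2e-06), and Pdgfrb rose from 0.747 to 114 ± 20.5 CPM (adjusted p = 6.6e-05). A further marker of the list was at 0.436 CPM in 3H3P and 79.5 ± 134 CPM in the subclones. It was higher in 7 of 7 subclones, at 349 CPM in subclone 8, and was not called. Endothelial markers (8 genes) summed to 1.99 CPM against 0.383 to 2.15 CPM, with Tie1 and Emcn at 0. The 12 leukocyte markers summed to 15.2 CPM against 10.5 to 31.3 CPM, mostly Csf1r, and 6 of them, Cd3e included, were at 0. Platelet markers (7 genes) summed to 6.16 CPM against 0.110 to 1.15 CPM, mostly Ppbp. The mitochondrial share of counts was 3.18% in 3H3P and 1.97% to 2.31% in the subclones. The hepatocyte, biliary and platelet sums, several genes of the fibroblast list (Dcn and Pdgfrb among them) and the mitochondrial share thus moved with the groups compared below. Their part in the results was not tested.

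The largest called differences between the groups were in a laminin chain and in Itga2 and Itgb6, integrin subunits of epithelial cells. The hemidesmosome subunits Itga6 and Itgb4 were not called. Lamb3, Itgb6 and Itga2 were far lower in all 7 subclones than in 3H3P, and Nid1 was lower as well. Itga10 and Itga2b were higher in all 7 subclones, from very low levels in 3H3P. Of the most abundant laminin chain genes, Lamb2 was lower in the subclones, and Lama5 and Lamc1 were not called. The proteoglycan genes Hspg2 and Agrn were abundant in both groups and were not called. Differences were tested with edgeR's quasi-likelihood test over all 14634 genes that passed a filter on low counts, and a gene was called when its Benjamini-Hochberg adjusted p was under 0.05. In bulk RNA, fewer cells of a type and less RNA per cell cannot be told apart. Because 3H3P has 1 library, the spread comes from the subclones alone and the lone library is assumed to vary as they do.

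Of the 41 genes, 30 passed the filter and 11 did not. Among the 30, 9 were called lower and 2 higher in the subclones, and 19 were not called. Over all tested genes 19.1% were called, 11.8% lower and 7.33% higher. Higher genes made up 38.3% of these calls, and 30.0% with limma-voom, 49.3% with DESeq2 and 50.3% on log2(TPM + 0.1) with limma. The median log2 fold change was −0.61 for the 30 genes and 0.03 for all tested genes, and it stayed at −0.61 with Itga9, which had 0 counts in 3H3P, set at its lower bound. These counts describe the genes that passed and are no test of the family. Itgb2 reached the minimum of the filter in 3H3P only, and Itga10, Itga2b, Itga9 and Lama1 in subclones only, so such genes were kept because they were high in the group concerned. In 15 of the 30 genes all 7 subclones lay below 3H3P, against 30.4% of all tested genes.

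**Figure D1:**
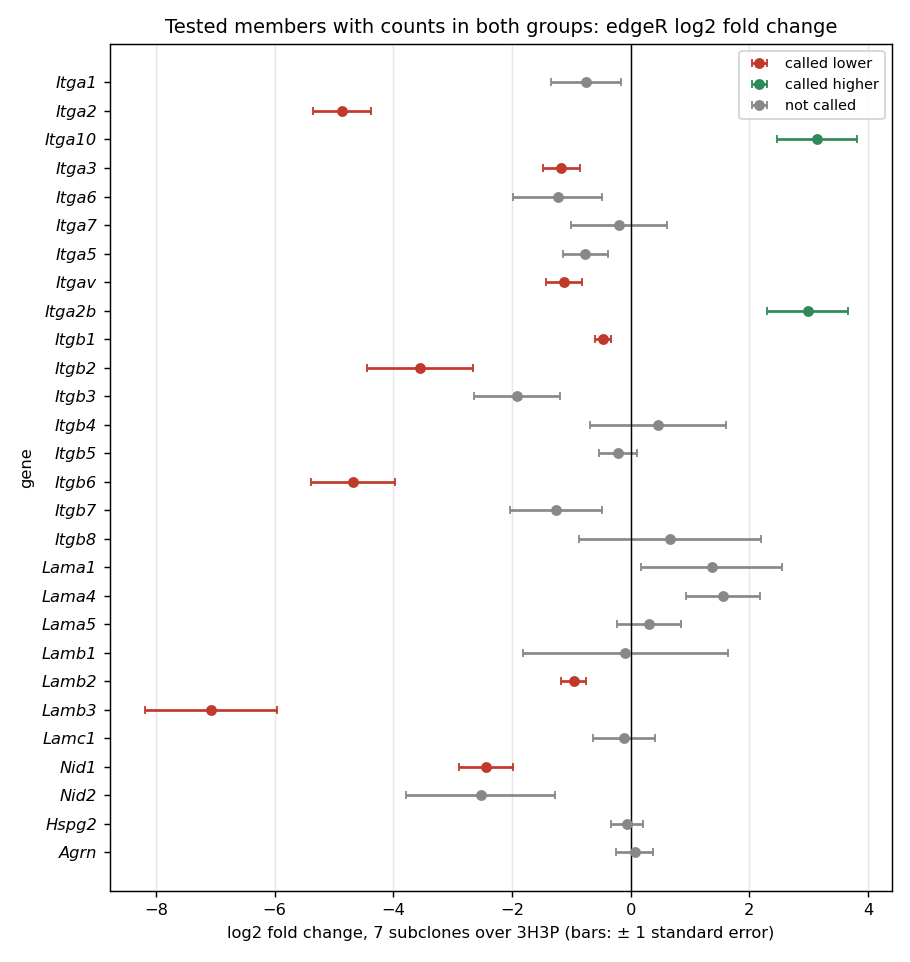
Log2 fold change of the 7 subclones over 3H3P (x axis, log2 units) for 28 tested genes with counts in both groups (y axis). Points are edgeR estimates and bars 1 standard error; red genes were called lower, green genes higher and grey genes were not called. Lamb3 lies farthest to the left at −7.07, with Itga2 and Itgb6 near −4.8, and Itga10 and Itga2b lie to the right near 3.

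The promoter windows of the 3 largest falls and of both rises are shown because these genes set the groups apart. The sequences are RefSeq's (GRCm38.p6), run 5′ to 3′ on the gene's strand from 250 bases before to 50 bases after the first start listed, and were found for 26 of the 41 genes. They are Lamb3 at chr1:193301744-193302043 on the plus strand, Itga2 at chr13:114932051-114932350 on the minus strand, Itgb6 at chr2:60722554-60722853 on the minus strand, Itga10 at chr3:96645334-96645633 on the plus strand and Itga2b at chr11:102469834-102470133 on the minus strand. Capitals mark GGGCGG, the GC box bound by SP family factors.
Lamb3: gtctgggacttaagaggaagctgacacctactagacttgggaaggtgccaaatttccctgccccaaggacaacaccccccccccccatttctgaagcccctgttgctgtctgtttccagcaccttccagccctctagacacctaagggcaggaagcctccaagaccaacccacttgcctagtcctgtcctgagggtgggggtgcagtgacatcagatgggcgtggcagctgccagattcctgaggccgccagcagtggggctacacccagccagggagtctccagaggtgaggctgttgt
Itga2: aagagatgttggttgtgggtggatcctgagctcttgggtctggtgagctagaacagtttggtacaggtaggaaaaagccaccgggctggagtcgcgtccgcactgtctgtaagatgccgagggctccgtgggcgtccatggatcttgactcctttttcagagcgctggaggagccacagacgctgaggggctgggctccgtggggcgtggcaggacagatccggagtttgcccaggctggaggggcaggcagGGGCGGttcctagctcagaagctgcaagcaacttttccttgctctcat
Itgb6: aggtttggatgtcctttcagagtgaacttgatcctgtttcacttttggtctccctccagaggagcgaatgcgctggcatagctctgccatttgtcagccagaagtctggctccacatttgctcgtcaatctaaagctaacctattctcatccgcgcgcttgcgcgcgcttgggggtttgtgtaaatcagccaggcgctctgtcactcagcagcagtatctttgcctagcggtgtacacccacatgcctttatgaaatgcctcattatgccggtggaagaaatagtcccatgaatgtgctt
Itga10: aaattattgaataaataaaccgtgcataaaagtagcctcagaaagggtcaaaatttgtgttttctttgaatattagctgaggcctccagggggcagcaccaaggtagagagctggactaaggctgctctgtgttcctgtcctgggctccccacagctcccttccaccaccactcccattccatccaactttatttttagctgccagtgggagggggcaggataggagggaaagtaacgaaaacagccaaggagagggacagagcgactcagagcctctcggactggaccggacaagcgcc
Itga2b: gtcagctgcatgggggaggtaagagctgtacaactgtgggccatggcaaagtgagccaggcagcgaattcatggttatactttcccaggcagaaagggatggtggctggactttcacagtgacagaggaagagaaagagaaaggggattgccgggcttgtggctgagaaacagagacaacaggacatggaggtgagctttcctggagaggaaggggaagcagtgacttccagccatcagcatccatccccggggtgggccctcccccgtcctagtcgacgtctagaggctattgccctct
Motifs searched on both strands were GGGCGG, the AP-1 site TGANTCA, the E-box CACGTG that MYC can bind, and TATAAA. None of the motifs contains another. Of these 5 windows only that of Itga2 held a match, a single GC box. Over the 26 windows 14 held GGGCGG (35.7% of all 32851 windows), 2 held TGANTCA (7.81%), and none held CACGTG (7.15%) or TATAAA (13.6%). The 2 windows with TGANTCA were those of Itgax and Itga9. The median GC content was 59.3% in the 26 windows and 52.7% in all. A match says only that the letters are present in this window. For motifs this rare, the absence of a match in 26 windows says little.

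Collagen-binding alpha subunits went in opposite directions. Itga2 (ENSMUSG00000015533.9, chromosome 13, 114833081 to 114932100 of GRCm38) encodes the alpha subunit that epithelial cells use to bind collagen. It was at 63.0 CPM in 3H3P and at 0.651, 2.24, 1.43, 1.79, 3.21, 2.22 and 3.60 CPM in subclones 1, 2, 3, 6, 7, 8 and 9. Every subclone was below 3H3P by a wide margin, the highest being subclone 9. Itga2 fell by 4.87 on the log2 scale (SE 0.49, edgeR quasi-likelihood adjusted p = 0.000439, lower in 7 of 7 subclones). Itga1, whose gene lies 20996 bases from Itga2 and whose product also binds collagen, was at 9.64 CPM in 3H3P and 5.70 ± 2.69 CPM in the subclones (adjusted p = 0.403). Subclone 1 was above 3H3P for Itga1, at 10.96 CPM, so the groups overlapped, and Gm49395 overlaps part of its locus on the same strand. Itga10 (ENSMUSG00000090210.7, chromosome 3, 96645584 to 96664519), a collagen receptor subunit best known from cartilage, was at 0.560 CPM in 3H3P, from 9 counts. The subclones were at 4.92, 5.24, 3.29, 7.29, 5.50, 2.89 and 5.88 CPM. It rose by 3.14 (SE 0.67, adjusted p = 0.0127, 7 of 7 subclones), and counting error alone put the ratio between 4.64 and 19.5 (95% exact binomial interval). Another protein-coding gene on the same strand, Gm42957, overlaps 7518 bases of the Itga10 locus, so reads there could be divided between them and the count is uncertain. Itga11 had 3 counts in 3H3P and 6 over all subclones and was not tested.

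Laminin-binding alpha subunits were among the most abundant of the alpha genes. Itga3 (ENSMUSG00000001507.16, chromosome 11, 95044474 to 95076801), whose product binds the laminins of epithelial basement membranes, was at 329 CPM in 3H3P. The subclones were at 103, 126, 114, 133, 181, 156 and 212 CPM, all below it, and the log2 fold change was −1.17 (SE 0.31, adjusted p = 0.0311). This call was lost without subclone 2, 3 or 6, with adjusted p = 0.0524, 0.0518 and 0.0535, and on log2(TPM + 0.1) with 0.0838 (0.0114 to 0.0838 over all alternatives). Itga6, which pairs with Itgb1 or with Itgb4 in hemidesmosomes, was at 91.3 CPM in 3H3P and at 23.3, 80.5, 72.4, 25.1, 15.9, 18.3 and 37.0 CPM. Subclones 2 and 3 lay near 3H3P and the rest far lower, and Itga6 was not called (adjusted p = 0.279). Itga7, the muscle laminin receptor subunit, was at 35.9 CPM and at 21.9, 15.9, 33.9, 43.5, 11.7, 73.7 and 18.6 CPM. Subclones 6 and 8 were above 3H3P and the other 5 below (adjusted p = 0.887).

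Of the alpha subunits that bind the RGD sequence of fibronectin and vitronectin, Itgav was called lower, Itga2b higher, and Itga5 was not called. Itgav (ENSMUSG00000027087.11, chromosome 2, 83724397 to 83806916), the shared partner of Itgb3, Itgb5, Itgb6 and Itgb8, was at 235 CPM in 3H3P and at 82.6, 94.0, 80.1, 124, 122, 156 and 98.6 CPM in the subclones. All subclones were lower (log2 fold change −1.12, SE 0.30, adjusted p = 0.0311), but the call was lost without subclone 9 (0.0514) and on log2(TPM + 0.1) (0.148; 0.00988 to 0.148 over all alternatives). Itga5, the fibronectin receptor subunit, was at 57.1 CPM and at 25.5, 22.6, 27.0, 45.9, 36.0, 48.5 and 29.5 CPM. It lay below 3H3P in 7 of 7 subclones and was not called (adjusted p = 0.185). Itga2b (ENSMUSG00000034664.13, chromosome 11, 102453297 to 102470122), which with Itgb3 makes the fibrinogen receptor of platelets, had 7 counts in 3H3P (0.436 CPM). The subclones were at 3.38, 3.39, 2.31, 3.71, 2.44, 5.63 and 3.60 CPM, all higher. Itga2b rose by 2.98 (SE 0.68, adjusted p = 0.0162), with a counting interval of the ratio from 3.80 to 19.8. Of the 7 platelet markers 6, Gp9 and Gp6 among them, stayed under 1 CPM in every library. The summed platelet list, mostly Ppbp, was lower in the subclones than in 3H3P, and a link to Itga2b was not tested. Itga8 was at 0 counts in all 8 libraries, which allows up to 3 counts in each.

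Alpha subunits of leukocytes were near or at 0. Itgad had 0 counts throughout, Itgax 1 count in all, and Itgae 4 counts in 3H3P and 22 over the subclones. Itgam had 10 counts in 3H3P and 5 over the subclones, and Itgal 0 and 24. None of these 5 genes was tested, and another protein-coding gene, Gm49368, overlaps 55809 bases of Itgam on the same strand. Itga4 had 2 counts and 1 count. Itga9, which binds tenascin and osteopontin, had 0 counts in 3H3P and 33 over the subclones, at least 1.65-fold higher against a floor of 3 counts in the 3H3P library, and was not called (adjusted p = 0.194). Ptprc, the pan-leukocyte marker, had 0 counts in 3H3P and 3 over the subclones.

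**Figure D2:**
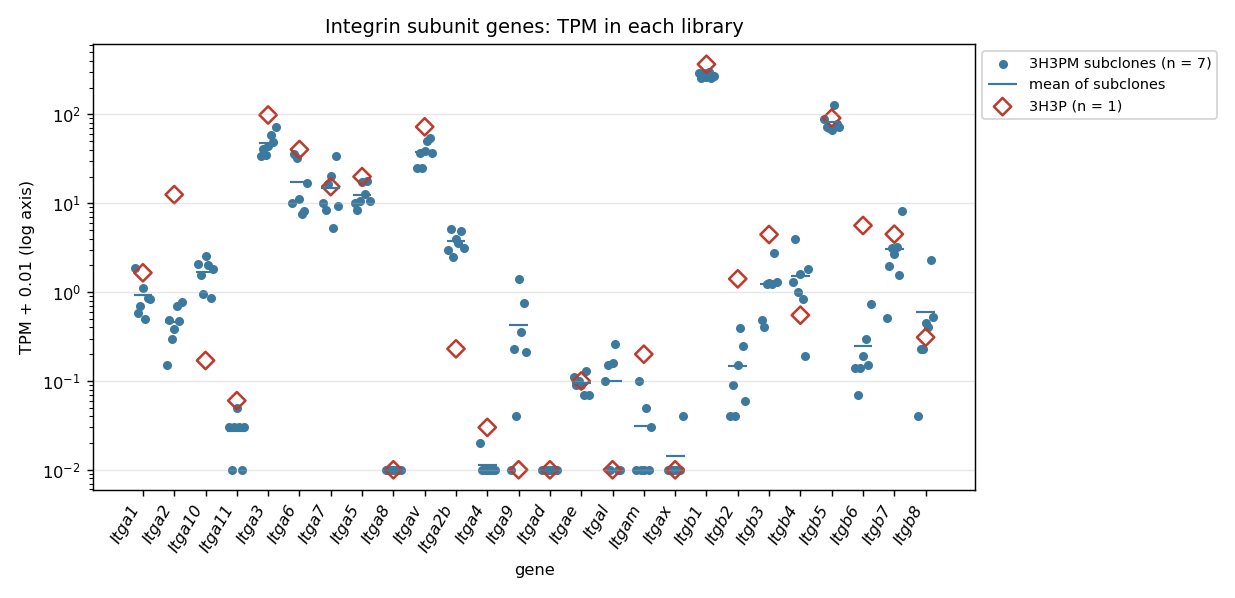
Level of each integrin gene in each library, as TPM (a level scaled for gene length and library depth) plus 0.01 on a log axis; genes are on the x axis, ordered by the ligand class of the alpha subunits and then the beta subunits. Blue dots are the 7 subclones, blue lines their mean and red diamonds the 3H3P library. Itgb1 is highest in every library, from 254 to 367 TPM, and Itga2 and Itgb6 show the diamond far above all dots.

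Beta subunit genes were dominated by Itgb1, the partner of most alpha chains. On the TPM scale it was at 367 in 3H3P and 277 ± 19.2 in the subclones, which was 77.3% of all beta subunit TPM in 3H3P and 69.5% to 79.1% in the subclones. In CPM, Itgb1 (ENSMUSG00000025809.15, chromosome 8, 128685654 to 128733200) was at 936 in 3H3P and at 704, 629, 734, 659, 729.7, 651 and 656 in the subclones. It varied least of the genes with a mean of 1 CPM or more, with an SD of 0.09 log2 units, and was slightly lower in all subclones (log2 fold change −0.46, SE 0.14, adjusted p = 0.0438). The call rests on the settings: it was lost with library size alone (0.0920), without the filter (0.128), on log2(TPM + 0.1) (0.0523) and without subclone 2, 3, 6, 7, 8 or 9 (up to 0.0767), with 0.00686 to 0.128 over all alternatives.

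Of the beta subunits that pair with the alpha v chain, Itgb6 was called lower, and Itgb3, Itgb5 and Itgb8 were not called. Itgb6 (ENSMUSG00000026971.15, chromosome 2, 60598292 to 60722643) is an epithelial subunit whose receptor activates latent TGF-beta. It was at 17.8 CPM in 3H3P and at 0.415, 0.192, 0.439, 0.596, 0.688, 0.445 and 2.08 CPM in the subclones. All subclones were lower, subclone 9 being the highest of them (log2 fold change −4.68, SE 0.70, adjusted p = 0.00271). Itgb5, the abundant vitronectin receptor subunit, was at 169.9 CPM and at 159, 128, 127, 118, 228, 134 and 129 CPM. Subclone 7 was above 3H3P and the others below, and Itgb5 was not called (log2 fold change −0.22, SE 0.31, adjusted p = 0.666). Itgb3 was at 18.0 CPM in 3H3P and 4.79 ± 3.08 CPM in the subclones. It was below 3H3P in 7 of 7 subclones and was not called (adjusted p = 0.0934), although it was called without subclone 8 (0.0268) and by limma-voom (0.0300; 0.0268 to 0.148 over all alternatives). Itgb8, which also activates latent TGF-beta, was at 1.80 CPM and at 0.178, 1.28, 0.824, 2.19, 2.22, 10.5 and 2.91 CPM. The groups overlapped, with subclone 8 far above the rest (adjusted p = 0.797).

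The remaining beta subunits were low. Itgb4, the hemidesmosome subunit with a long cytoplasmic tail, was at 1.99 CPM in 3H3P and at 4.86, 4.22, 3.40, 1.72, 0.382, 0.667 and 3.88 CPM in the subclones. Its subclones lay on both sides of 3H3P (adjusted p = 0.810). Itgb2 (ENSMUSG00000000290.13, chromosome 10, 77530252 to 77565708), the shared beta chain of leukocyte integrins, had 42 counts in 3H3P (2.61 CPM) and 22 over all subclones. Their levels were 0.0592, 0.128, 0.0549, 0.265, 0.611, 0.371 and 0.0692 CPM, all lower (log2 fold change −3.55, SE 0.89, adjusted p = 0.0245). DESeq2 did not call it (0.0544; 0.00382 to 0.0544 over all alternatives). On log2(TPM + 0.1) its log2 fold change was −2.84. Itgb7, which pairs with Itga4 or Itgae in lymphocytes, was at 6.72 CPM and 2.81 ± 1.93 CPM (adjusted p = 0.288). Subclone 9, at 6.71 CPM, was at the level of 3H3P, while neither alpha partner passed the filter.

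Laminin alpha chain genes consisted almost wholly of Lama5, the alpha chain of most epithelial and vascular basement membranes. It made up 99.1% of laminin alpha TPM in 3H3P and 94.0% to 99.2% in the subclones. Lama5 (ENSMUSG00000015647.9, chromosome 2, 180176373 to 180225859) was at 511 CPM in 3H3P and at 669.6, 819.9, 734, 703, 260.3, 851 and 396 CPM. The other 5 subclones were above 3H3P, and subclones 7 and 9 were below it (log2 fold change 0.31, SE 0.53, adjusted p = 0.719). Lama4, found around blood vessels, was at 3.55 CPM in 3H3P and at 8.76, 4.09, 9.45, 14.5, 13.3, 13.0 and 10.4 CPM. It was higher in 7 of 7 subclones without being called (adjusted p = 0.111), but was called by DESeq2 (0.0434) and without subclone 2 (0.0239; 0.0239 to 0.210 over all alternatives). Lama1, the embryonic alpha chain, was at 0.498 CPM and 1.29 ± 0.688 CPM (adjusted p = 0.457), lowest in subclone 2 at 0.128 CPM. Lama2, of muscle and nerve, had 0 counts in 3H3P and 2 over the subclones. Lama3, the alpha chain that joins Lamb3, had 1 count in 3H3P and 0 in the subclones.

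The makeup of the laminin beta chain genes differed most between the groups. On the TPM scale 3H3P held 68.2% Lamb2 and 31.4% Lamb3, whereas the subclones held 94.9% to 99.9% Lamb2 and at most 2.71% Lamb3. Lamb3 (ENSMUSG00000026639.18, chromosome 1, 193207699 to 193343878), a chain of the laminin that anchors stratified epithelia, was at 122 CPM in 3H3P, from 1965 counts. The subclones were at 0.0592, 0.511, 0.165, 0.265, 2.37, 0 and 3.11 CPM, from 92 counts in all. Subclones 7 and 9 held most of what remained. The log2 fold change was −7.07 (SE 1.11, adjusted p = 0.00325), −7.82 without subclone 9 and −8.45 in limma-voom. Its annotated locus overlaps Hsd11b1 and G0s2 on the opposite strand, and no source used here says whether strand was used in counting. Whether reads of those genes are among the 1965 counts was not tested. With Lama3 at 1 count, 3H3P had counts assigned to this beta chain and almost none to the alpha chain it joins.

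Lamb2, the beta chain of mature basement membranes, was at 258 CPM in 3H3P and at 154, 129, 152, 143, 103, 137 and 108 CPM in the subclones (ENSMUSG00000052911.9, chromosome 9, 108479736 to 108490530). All subclones were lower (log2 fold change −0.96, SE 0.21, adjusted p = 0.0146), and the call was lost on log2(TPM + 0.1) (0.0693; 0.00150 to 0.0693 over all alternatives). Lamb1, the beta chain of the earliest laminins, was at 1.37 CPM and at 0.0592, 0.319, 0.329, 0.397, 4.97, 0.371 and 2.63 CPM. Subclones 7 and 9 were above 3H3P and the other 5 below it (adjusted p = 0.976). These are the same 2 subclones in which Lama5 and Lamb2 were lowest and Lamb3 was highest.

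Among laminin gamma chains Lamc1, the usual gamma chain, was at 295 CPM in 3H3P and at 158, 181, 218, 359, 237, 502 and 243 CPM (adjusted p = 0.894). Subclones 6 and 8 were above 3H3P, as they were for Itga7. Lamc3 had 8 counts in 3H3P and 20 over the subclones and was not tested.

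**Figure D3:**
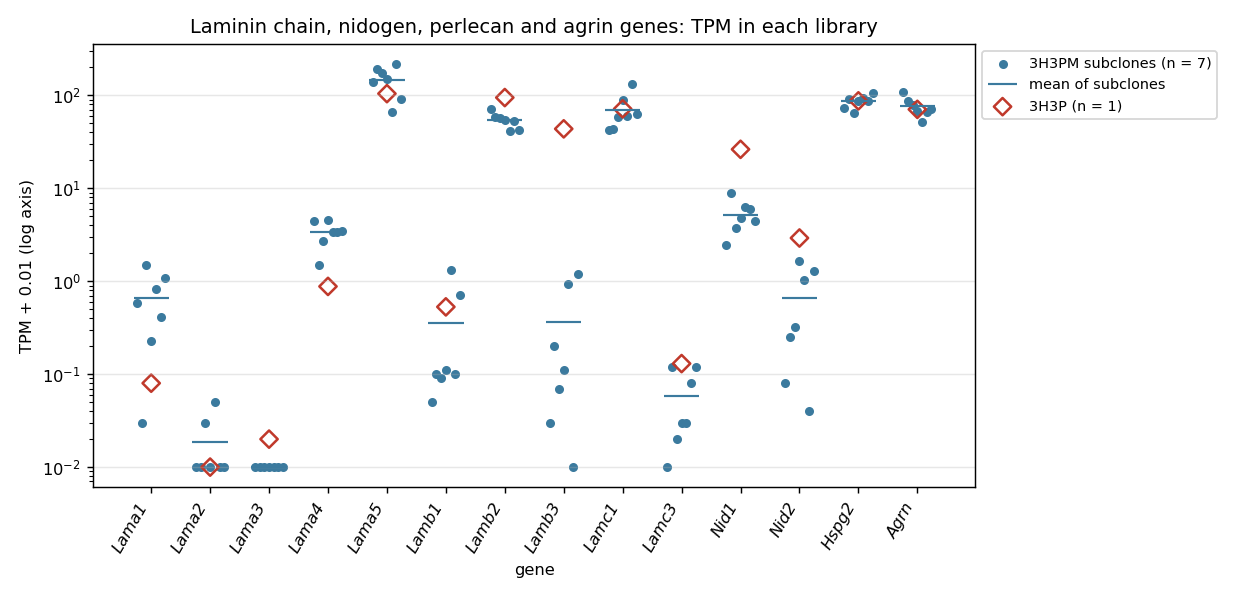
Level of the laminin chain, nidogen, perlecan and agrin genes in each library, as TPM plus 0.01 on a log axis, with genes on the x axis. Blue dots are the 7 subclones, blue lines their mean and red diamonds the 3H3P library. Lama5, Lamb2, Lamc1, Hspg2 and Agrn lie between 41.5 and 217 TPM in every library, while Lamb3 is at 43.7 TPM in 3H3P and far lower in every subclone.

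The nidogens link the laminin sheet to collagen IV. Nid1 (ENSMUSG00000005397.8, chromosome 13, 13437551 to 13512269) was at 109 CPM in 3H3P and at 9.83, 36.5, 15.3, 14.4, 23.1, 24.5 and 17.5 CPM in the subclones. Every subclone was lower (log2 fold change −2.44, SE 0.45, adjusted p = 0.00713). Nid2 was at 9.89 CPM and at 0.178, 0.639, 0.604, 4.04, 2.90, 0.0741 and 3.60 CPM. It was lower in 7 of 7 subclones but spread widely among them, with subclones 6, 7 and 9 highest, and was not called by edgeR (adjusted p = 0.191). Limma-voom called it (0.0360; 0.0360 to 0.264 over all alternatives). The heparan sulfate proteoglycans showed small differences. Hspg2, encoding perlecan, was at 513 CPM and at 418, 573, 349.8, 487, 479, 516 and 619 CPM (log2 fold change −0.06, SE 0.26, adjusted p = 0.891). Agrn, encoding agrin, was at 227 CPM and at 338, 262, 251, 222, 156, 209.7 and 219 CPM (log2 fold change 0.06, SE 0.32, adjusted p = 0.908). For both genes the subclones lay on either side of 3H3P.

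Spread among the subclones was described by the SD of log2 CPM with a prior count of 2. Among the 26 genes with a mean of 1 CPM or more it had a median of 0.61, against 0.28 for all 12151 such genes in the files. It was above 1 for Itgb4, Itgb8, Lama1, Lamb1 and Nid2, which is 5 of 26, against 6.7% of all such genes. Across the subclones Itgb4 ran from 5 to 82 counts, Itgb8 from 3 to 142 and Lama1 from 2 to 32. Lamb1 ran from 1 to 65 counts and Nid2 from 1 to 61. All 5 had a mean under 5 CPM, where counting error adds to the spread, and its part was not tested. None of the genes with a mean of 5 CPM or more exceeded 1. Of those, Itga6 and Itga7 spread most, with SDs of 0.93 and 0.92, and their highest and lowest subclones differed 5.07-fold and 6.31-fold. Itgb1, Lamb2, Hspg2 and Itgb5 spread least, with SDs of 0.09, 0.23, 0.28 and 0.33.

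**Figure D4:**
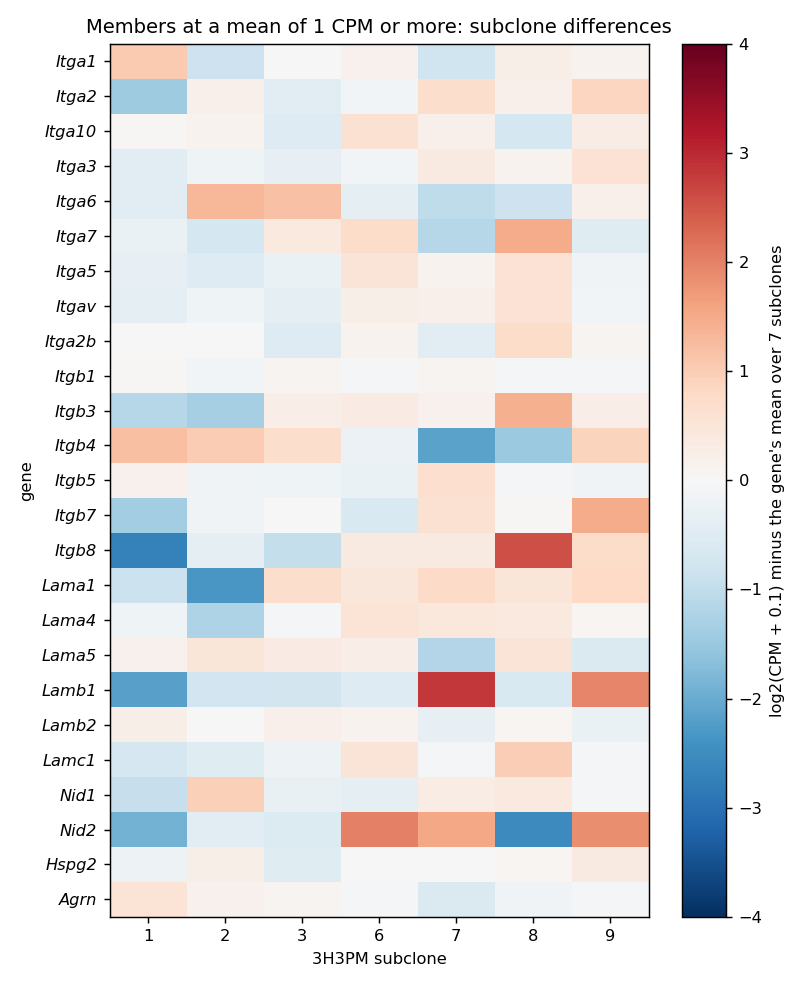
Differences among the 7 subclones (x axis) for 25 genes with a mean of 1 CPM or more (y axis). Colour gives log2(CPM + 0.1) minus the gene's mean over the subclones, red above and blue below. Lamb1 is high in subclones 7 and 9, Itga6 in subclones 2 and 3, Itgb8 in subclone 8, and the Itgb1 row is nearly white.

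Genes that work with these receptors and matrix proteins were taken from 5 lists, to be read beside the 11.8% lower, the 7.33% higher and the median of 0.03 over all tested genes. Of 24 genes for the adaptors that join integrin tails to actin, 23 were tested, 8 were lower, 1 was higher and 14 were not called (median log2 fold change −0.35). Parva, encoding parvin alpha, was at 309.6 CPM in 3H3P and 116 ± 11.4 CPM in the subclones (adjusted p = 0.00063), and Lims2 was at 3.73 and 0.208 ± 0.114 CPM (adjusted p = 0.00314). Lims2 reached the filter minimum of 0.651 CPM in 3H3P only, with 0.382 CPM in its highest subclone. With a filter on a mean of 1 CPM or more, 7 adaptor genes were lower. Actn4, a crosslinker of actin, fell by 0.89 (adjusted p = 0.00676), while Tln2, encoding the less common talin, rose by 1.39 (adjusted p = 0.0063). The main talin gene Tln1 was at 272 CPM against 322 ± 52.9 CPM and was not called (adjusted p = 0.507). Of the 6 hemidesmosome partners 4 were tested. Cd151 fell by 0.75 (adjusted p = 0.0118) and Plec fell by 0.80 (adjusted p = 0.0203). Dst was not called, and neither was Krt14 (adjusted p = 0.205). Krt14 was at 0.124 CPM in 3H3P and at 93.0 ± 173 CPM in the subclones, of which subclone 2 held 477 CPM. Without subclone 2 the mean was 29.0 CPM.

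Further basement membrane components were lower in 8 and higher in 1 of 17 tested, of 22 listed (median −1.63), against 11.8% and 7.33% of all tested genes. Col4a6, a collagen IV chain, had 124 counts in 3H3P and 3 over the subclones (adjusted p = 0.00116), and Col15a1 had 42 and 16 (adjusted p = 0.00504). In the subclones Col4a6 and Col15a1 reached at most 0.178 and 0.331 CPM, under the filter minimum of 0.651 CPM. Both were therefore tested only because 3H3P was high. With a filter on a mean of 1 CPM or more, 6 genes of this list were lower. Ntn4, a laminin-related netrin, fell by 1.95 (adjusted p = 0.0146) and Smoc1 rose by 2.32 (adjusted p = 0.0145). Matrix receptors other than integrins were lower in 1 and higher in 1 of 9, namely the syndecan genes Sdc1 (log2 fold change −0.69, adjusted p = 0.0114) and Sdc3 (2.86, adjusted p = 0.0285). Those shares are near the 11.8% and 7.33% of all tested genes, and limma-voom did not call Sdc3. Bcam, a receptor for Lama5-containing laminins, was at 191 CPM against 29.8 ± 25.5 CPM without being called (adjusted p = 0.0611), and Cd44 was not called (adjusted p = 0.108). Of 17 integrin ligands outside the basement membrane 14 were tested, with 3 lower and 1 higher (median −0.37). Thbs1, encoding thrombospondin, rose from 204 to 1118 ± 242 CPM (adjusted p = 0.00232). The ligands of leukocyte integrins were lower: Icam1 fell by 2.11 (adjusted p = 0.00734) and Vcam1 fell by 3.74 (adjusted p = 0.0358). Cdh1, encoding the ligand of the Itgae product, fell by 3.94 (adjusted p = 0.00363). Fn1, encoding fibronectin, was at 2846 CPM in 3H3P and 2044 ± 551 CPM in the subclones (adjusted p = 0.368).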

How the data were processed

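The authors' deposited files give, per the file headers, an expected count and a TPM value for each gene of 8 libraries, and the tools were STAR, RSEM, FastQC and DESeq2 with the GRCm38 (mm10) build, per the submitters' processing notes. Tool versions and strand settings are not stated there. Each deposited expected count is an RSEM estimate, fractional for 1 to 4 of the 41 genes per library. The TPM deposited by the authors uses gene lengths that RSEM estimated per library, so it also moves with isoform use.

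Expected counts were rounded and tested across all genes with edgeR 4.0.16 (R 4.3.3; filterByExpr, TMM scaling, glmQLFit and glmQLFTest), with 6 residual degrees of freedom. CPM are TMM-scaled. Standard errors are the log2 fold change over the root of F. Each subclone gave a single library, and p-values reflect differences among isolates only. The 95% exact binomial intervals and the floor of 3 counts cover counting error only. Alternatives used DESeq2 1.42.0, limma 3.58.1, other scaling and filters, and each subclone left out. The labels give no batch. Some genes counted among the 41 and in the marker lists are not reported here by name. Positions are GENCODE vM21 (GRCm38). Named genes were those called, those at a mean of 10 TPM or more, those with an SD above 1, and up to 4 per list with the smallest p; others were added after their values were seen. The genes and lists were chosen with earlier results of these data known. Tested on simulated data of this comparison (13761 genes), the test called 18% of 2-fold, 64% of 4-fold, 82% of 8-fold and 90% of 16-fold changes (50 genes each), with 3 false calls. The simulated 3H3P library was drawn to vary as the subclones do, so these figures cannot check that assumption. Changed genes had a subclone mean of 1 CPM or more, while Itgb2, Itgb6 and Lamb3 had means of 0.223, 0.693 and 0.926 CPM.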

Additional observations from a re-analysis of the deposited data

Results flagged for a closer look

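In each tested gene the highest and lowest of the 7 subclones were compared with the others by Dixon's criterion (gap over range above 0.568). Normally distributed values meet it in about 1 of 20 groups. CPM were not log-transformed here, and a skew towards high values changes that share. The number found is therefore a description and no measure of an excess. Among 30 genes 6 had a subclone that stood apart, each time the highest. Subclone 8 was highest for Itgb8 at 10.5 CPM (next 2.91 CPM), for Itgb3 at 10.9 CPM (next 5.03 CPM) and for Itga2b at 5.63 CPM (next 3.71 CPM). Subclone 9 was highest for Itgb6 at 2.08 CPM (next 0.688 CPM), subclone 7 for Itgb5 at 228 CPM (next 159 CPM) and subclone 1 for Itga1 at 10.96 CPM (next 6.15 CPM).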

How the results depend on the processing

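Of the 41 genes, 9 were called lower with the settings used in the text, 7 to 11 with the other tools, scalings, filters and left-out subclones, and 5 on log2(TPM + 0.1) with limma, where Itga3, Itgav, Itgb1 and Lamb2 were lost. The calls of Itga2, Itga10, Itga2b, Itgb6, Lamb3 and Nid1 were kept under all 13 alternatives. All 13 use the same single 3H3P library, so they cannot show whether that library is unusual. Genes called higher numbered 2, or 3 with DESeq2 and without subclone 2. The number of genes with an SD above 1 over the subclones was 5, 0 at a mean of 5 CPM or more, and 4 to 8 with a subclone left out (8 without subclone 6); the cause was not tested. All tested genes called numbered 2799, and 1991 to 3428 over the alternatives, 38.3% of them higher, 30.0% with limma-voom, 49.3% with DESeq2 and 50.3% on log2(TPM + 0.1). On log2(TPM + 0.1) 5 rather than 8 further basement membrane genes were lower, and 6 with a filter on a mean of 1 CPM or more. DESeq2 called 2 rather than 1 adaptor gene and 1 rather than 0 hemidesmosome genes higher. Among the other matrix receptors limma-voom called 2 lower and 0 higher in place of 1 and 1, and 2 were lower without subclone 3. Genes under about 10 counts in a library, such as Itga10 and Itga2b in 3H3P, have ratios limited by depth.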
